A study of Mus musculus with 9 samples.

Results

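The 10 genes described here, Glul, Oat, Tbx3, Lgr5, Axin2, Nkd1, Rnf43, Znrf3, Notum and Rspo3, belong to the Wnt and beta-catenin system that patterns the liver lobule, and were taken by name from the 24421 gene symbols counted in each library. All 10 had enough counts to be among the 14104 genes tested. Gene expression had been measured by RNA sequencing of whole liver in 4 mice with O-GlcNAc transferase (OGT) deleted, whose tissue the labels call OGT-deficient, and in 5 wild-type littermates (WT). OGT places single N-acetylglucosamine sugars on proteins of the nucleus and cytoplasm. Both groups were of the C57BL/6J background, 5 weeks old and had gone without food for 6 h, and mice of both sexes are described. The deleted part of Ogt, any Cre driver and each mouse's sex are not given in the labels. All libraries nonetheless held the Y-linked Ddx3y, at 55.4 to 60.9 CPM in OGT-deficient livers and 77.3 to 91.1 CPM in WT livers, and Xist, which female cells express, at no more than 0.169 CPM in OGT-deficient livers and 1.13 CPM in WT livers. The tissue carried hepatocyte transcripts throughout: the summed level of 7 hepatocyte markers was 44640 to 57820 CPM in OGT-deficient livers, against 93100 to 111900 CPM in WT livers. Most of that sum was the albumin gene Alb, which averaged 33490 CPM in OGT-deficient livers and 73880 CPM in WT livers.

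Wnt proteins secreted by endothelial cells of the central vein hold beta-catenin stable in the nearby hepatocytes, where it works with TCF factors to switch on the pericentral programme of glutamine synthesis and xenobiotic metabolism. R-spondin 3 strengthens that signal by binding LGR4 and LGR5 receptors and taking the ubiquitin ligases RNF43 and ZNRF3 off the cell surface, so that more Wnt receptors remain there. Several products of the pathway limit it in turn: AXIN2 scaffolds the complex that destroys beta-catenin, NKD1 acts on Dishevelled, RNF43 and ZNRF3 remove Frizzled receptors, and NOTUM strips the lipid that Wnt proteins need. Glul, Oat, Tbx3, Lgr5 and Axin2 are commonly read as targets of the signal in pericentral hepatocytes.

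The stretches before the start sites of Glul, Oat and Axin2 are shown because these targets fell together in the comparison below. Each line holds the 250 bases before the RefSeq start (GRCm38.p6), read 5′ to 3′ on the gene's strand, with the letters CCAAT or their complement ATTGG in capitals.
Glul (chr1:153899679-153899928, plus strand): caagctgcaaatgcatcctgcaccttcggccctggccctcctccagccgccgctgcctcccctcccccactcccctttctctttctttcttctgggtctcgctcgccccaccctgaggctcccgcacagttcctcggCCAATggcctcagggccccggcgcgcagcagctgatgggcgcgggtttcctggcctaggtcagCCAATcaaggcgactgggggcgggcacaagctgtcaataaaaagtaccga
Oat (chr7:132576399-132576648, minus strand): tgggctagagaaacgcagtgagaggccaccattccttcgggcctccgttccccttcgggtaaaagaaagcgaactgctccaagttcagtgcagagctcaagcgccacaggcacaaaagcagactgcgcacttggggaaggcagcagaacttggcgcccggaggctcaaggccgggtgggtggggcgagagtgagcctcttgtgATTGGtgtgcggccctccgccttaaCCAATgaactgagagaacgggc
Axin2 (chr11:108920099-108920348, plus strand): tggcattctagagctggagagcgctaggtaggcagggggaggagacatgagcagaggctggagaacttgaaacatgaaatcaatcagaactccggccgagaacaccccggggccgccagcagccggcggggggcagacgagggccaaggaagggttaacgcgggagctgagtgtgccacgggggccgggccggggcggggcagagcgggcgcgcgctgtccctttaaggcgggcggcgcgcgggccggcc
The capitals appear 2 times in the Glul stretch, 2 times in that of Oat, 0 times in that of Axin2 and 0 times in that of Nkd1 and in both of Rnf43, which are not shown. That makes 2 of 6 stretches of the members, beside 33.8% of 32851 stretches of this length in the table. CCAAT was picked after the sequences had been read. The core letters that TCF and LEF factors bind, CTTTGAT or CTTTGAA, were searched on both strands in the windows from 250 bases before to 50 after the start. They occurred in 0 of the 6 windows that the table holds for Glul, Oat, Axin2, Nkd1 and Rnf43, against 8.65% of 32851 windows over all genes. By the gene coordinates given below, the stretches of Nkd1 (from 88527383) and Rnf43 (from 87662837 and 87699647) lie inside their genes. They thus precede later starts than the first, which limits what their lack of matches shows. No window was available for Tbx3, Lgr5, Znrf3, Notum and Rspo3, so only 5 of the 10 genes could be searched.

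Depth was similar in both groups, at 36323832 to 45102080 gene counts per OGT-deficient library and 32337861 to 54130901 per WT library, and the member with the fewest counts, Rspo3, had at least 115 in every library. Values are CPM, a gene's counts brought to a common library size and composition, and a gene was called where edgeR's quasi-likelihood test gave an adjusted p under 0.05. Ogt measured 20.6, 14.3, 17.2 and 15.6 CPM in OGT-deficient 1 to 4, against 51.1, 54.2, 57.1, 73.1 and 72.3 CPM in WT 1 to 5, with no overlap. Its averages were 16.9 ± 2.70 CPM in OGT-deficient liver and 61.6 ± 10.4 CPM in WT liver (SD, n = 4 and 5; log2 fold change -1.86, SE 0.14, adjusted p = 3.53e-07). The difference between the groups was broad, with 61.1% of tested genes called, 29.4% lower and 31.6% higher in OGT-deficient liver. The split depends on the scaling: 51.8% of calls were higher as given and 62.5% with upper-quartile factors, which moved the median over all genes to 0.145, against 0.0218 as given, on the log2 scale. Alignments to several places, which entered no gene count, were fewer in every OGT-deficient library, at 0.205 to 0.224 per assigned count, against 0.314 to 1.02 in WT libraries (two-sided exact permutation p = 0.0159, which no split of 9 libraries into these groups can go below, and 0.0238 adjusted over 6 library measures).

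Of the 10 genes, 8 were lower in OGT-deficient liver, Rspo3 was higher and Nkd1 was not called. Over all tested genes, 29.4% were called lower and 31.6% higher. The median log2 fold change of the 10 was -0.77, against 0.02 over all tested genes, and single values ran between -1.81 for Tbx3 and 0.42 for Rspo3. The OGT-deficient libraries lay wholly below the WT libraries for 7 genes and wholly above them for Rspo3, while the groups overlapped for Nkd1 and Znrf3. Of all tested genes, 25.0% lay wholly below and 26.2% wholly above, 51.3% in either direction. Because whole tissue was sequenced, fewer cells of a type and less RNA per cell cannot be told apart. Most hepatocyte markers moved with the falls: 5 of 7 fell and 0 rose, and the median of the 7 log2 fold changes was -0.50. Tat and Apob were not called (log2 fold changes -0.35 and 0.32, adjusted p = 0.18 and 0.0796 in edgeR), and Apob averaged higher in OGT-deficient liver. None of the 7 markers was at 0 throughout, and their part in the results was not tested.

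**Figure D1:**
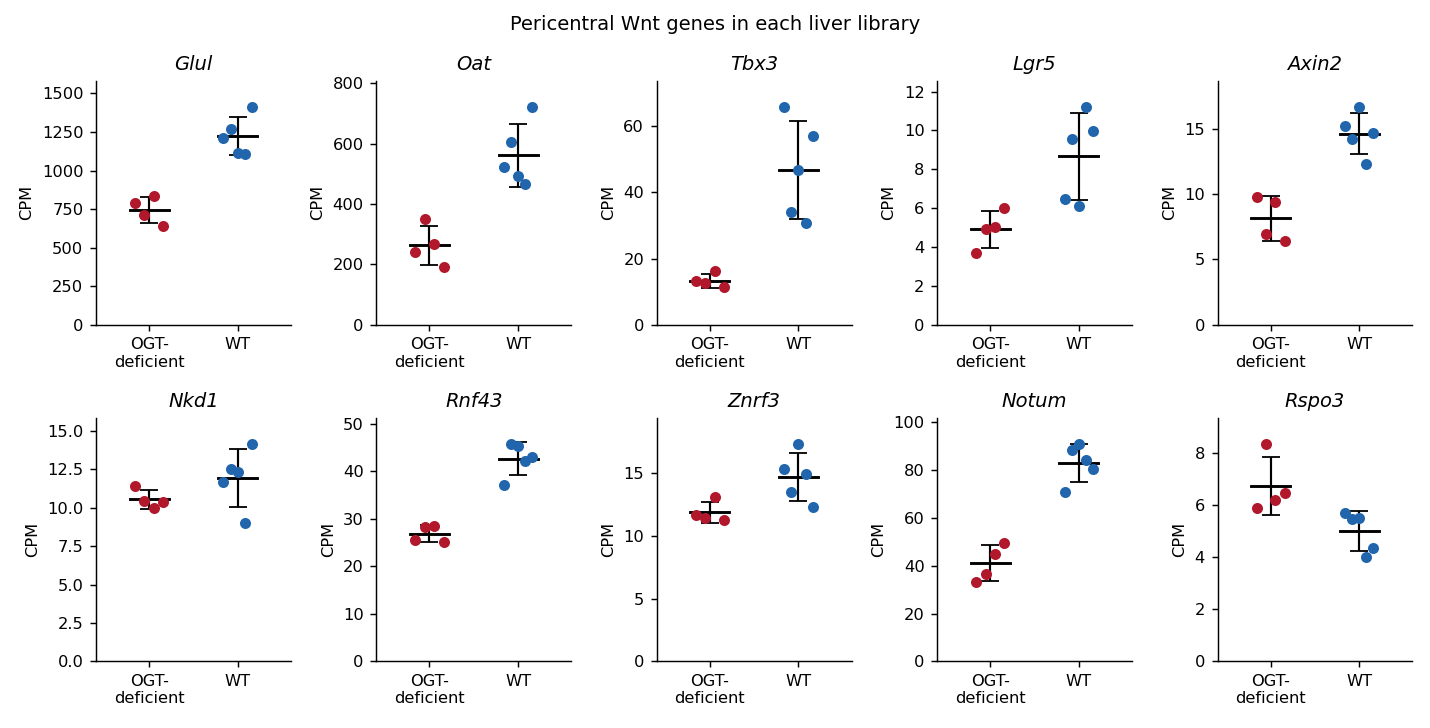
CPM of each of the 10 genes in the 4 OGT-deficient and 5 WT libraries. Points are libraries, horizontal lines group means and bars SD. For Glul, Oat, Tbx3, Lgr5, Axin2, Rnf43 and Notum every OGT-deficient point lies below every WT point, and for Rspo3 above. Each panel has its own scale, starting at 0.

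Glul, Oat and Tbx3 were read as hepatocyte targets. Glul encodes glutamine synthetase, which captures ammonia in the innermost hepatocytes around the central vein (chromosome 1, 153899944 to 153909723, plus strand, GRCm38). It measured 788, 712, 832 and 639.9 CPM in OGT-deficient 1 to 4, against 1213, 1269.9, 1116, 1109.7 and 1411 CPM in WT 1 to 5. The lowest WT library, at 1109.7 CPM, stood above the highest OGT-deficient library, at 832 CPM. Group averages were 743 ± 85.0 CPM in OGT-deficient liver and 1224 ± 124 CPM in WT liver (SD, n = 4 and 5; log2 fold change -0.72, SE 0.11, adjusted p = 9.99e-05, from edgeR). Transcripts of other genes, among them the pseudogene Glns-ps1, hold 14.2% of the 50-base stretches of Glul, so its value is uncertain. Oat encodes ornithine aminotransferase, which turns ornithine towards glutamate (chromosome 7, 132557478 to 132576398, minus strand). Its level was 242, 349.7, 267 and 193 CPM in OGT-deficient 1 to 4, against 521, 606, 492, 465 and 721 CPM in WT 1 to 5. The OGT-deficient libraries were all lower, with library 2 the highest of them, and the groups did not overlap (log2 fold change -1.09, SE 0.17, adjusted p = 0.000137).

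Tbx3, a T-box transcription factor gene (chromosome 5, 119670669 to 119684724, plus strand), showed the largest fall of the 10. It measured 13.1, 12.5, 16.3 and 11.4 CPM in OGT-deficient 1 to 4, against 65.8, 34.2, 46.7, 30.9 and 57.0 CPM in WT 1 to 5. WT libraries 2 and 4 sat well below WT 1 and 5, but still above all OGT-deficient libraries. The highest WT value was 2.13 times the lowest, whereas the highest OGT-deficient value was 1.44 times the lowest. Means were 13.3 ± 2.14 CPM in OGT-deficient liver and 46.9 ± 14.8 CPM in WT liver (log2 fold change -1.81, SE 0.21, adjusted p = 1.23e-05), and 1.77% of tested genes had a lower log2 fold change. Of all tested genes, 6.80% were called and at least 2-fold lower, and Tbx3, Oat and Notum were the members among them.

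Lgr5 encodes a receptor for R-spondins and is itself raised by the signal in pericentral hepatocytes (chromosome 10, 115450311 to 115587780, minus strand). Its level was 3.67, 4.91, 5.05 and 6.02 CPM in OGT-deficient 1 to 4, against 6.47, 9.56, 6.09, 11.2 and 9.99 CPM in WT 1 to 5. WT 1 and 3 were the lowest WT libraries and came close to OGT-deficient 4, the highest of its group, without overlap (log2 fold change -0.82, SE 0.20, adjusted p = 0.00375). Lgr4, the more widely expressed receptor of the same kind, measured 36.5, 45.6, 42.0 and 41.8 CPM in OGT-deficient 1 to 4, against 71.4, 60.7, 63.9, 74.6 and 68.5 CPM in WT 1 to 5. It too was lower in all OGT-deficient libraries (log2 fold change -0.71, SE 0.09, adjusted p = 2.21e-05). Per kilobase of exon, Lgr5 was the lowest of the 10 genes in both groups, at 0.479 ± 0.0941 RPKM in OGT-deficient liver and 0.844 ± 0.220 RPKM in WT liver.

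Of the 5 genes that restrain the signal, Axin2, Rnf43, Znrf3 and Notum were called lower and Nkd1 was not called. Axin2, the scaffold gene often used as a reporter of beta-catenin activity (chromosome 11, 108920349 to 108950783, plus strand), measured 9.80, 6.96, 9.35 and 6.39 CPM in OGT-deficient 1 to 4, against 15.2, 14.2, 16.6, 12.3 and 14.7 CPM in WT 1 to 5. All OGT-deficient libraries lay below all WT libraries (log2 fold change -0.84, SE 0.14, adjusted p = 0.000229). Nkd1, which encodes an inhibitor that binds Dishevelled (chromosome 8, 88521354 to 88594884, plus strand), measured 11.4, 10.4, 9.96 and 10.4 CPM in OGT-deficient 1 to 4, against 11.7, 12.5, 12.3, 9.02 and 14.2 CPM in WT 1 to 5. WT 4 had the lowest value of all 9 libraries and the other WT libraries the highest, so the groups overlapped, and Nkd1 was not called (log2 fold change -0.18, SE 0.12, adjusted p = 0.211). Without WT 4 it was called lower (log2 fold change -0.27, adjusted p = 0.0378; adjusted p = 0.0378 to 0.698 over all alternatives).

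Relative to Nkd1 in the same library, Axin2 stood at 0.860, 0.667, 0.939 and 0.617 in OGT-deficient 1 to 4, against 1.30, 1.13, 1.35, 1.36 and 1.04 in WT 1 to 5. No OGT-deficient ratio reached a WT ratio (difference -0.70 on the log2 scale, two-sided exact permutation p = 0.0159, the smallest possible, and 0.0357 adjusted over the 45 pairs of the 10 genes). The change of Axin2 was thus larger than that of Nkd1, although both encode intracellular inhibitors.

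Rnf43 and Znrf3 encode related membrane ubiquitin ligases that remove Frizzled receptors. Rnf43 (chromosome 11, 87662722 to 87735539, plus strand) measured 25.6, 28.3, 28.5 and 25.0 CPM in OGT-deficient 1 to 4, against 37.2, 45.8, 45.4, 42.1 and 42.9 CPM in WT 1 to 5. The groups were far apart compared with their own spread (log2 fold change -0.67, SE 0.08, adjusted p = 2.37e-05). Znrf3 (chromosome 11, 5276324 to 5444847, minus strand) measured 11.7, 11.4, 13.1 and 11.2 CPM in OGT-deficient 1 to 4, against 15.3, 13.5, 17.3, 14.9 and 12.3 CPM in WT 1 to 5. OGT-deficient 3 lay above WT 5, and the fall was smaller (log2 fold change -0.31, SE 0.11, adjusted p = 0.0257). This call rested on single libraries and on the scaling: Znrf3 had adjusted p = 0.0677 without WT 3, 0.0533 without OGT-deficient 2 and 0.0512 without OGT-deficient 4, and 0.163 with upper-quartile factors, where its log2 fold change was -0.18 (adjusted p = 0.0111 to 0.163 over all alternatives). The ratio of Rnf43 to Znrf3 was 2.19, 2.48, 2.18 and 2.23 in OGT-deficient 1 to 4 and 2.43, 3.39, 2.62, 2.82 and 3.48 in WT 1 to 5, a difference of -0.36 on the log2 scale that did not pass adjustment over the 45 pairs (two-sided exact permutation p = 0.0318, adjusted 0.0595).

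Notum encodes a secreted enzyme that removes the palmitoleate group of Wnt proteins (chromosome 11, 120653788 to 120661175, minus strand). It measured 33.2, 36.5, 44.8 and 49.6 CPM in OGT-deficient 1 to 4, against 70.7, 88.7, 91.1, 84.4 and 80.6 CPM in WT 1 to 5. The highest OGT-deficient library stood at 49.6 CPM and the lowest WT library at 70.7 CPM, and group averages were 41.0 ± 7.51 CPM in OGT-deficient liver and 83.1 ± 8.0 CPM in WT liver (log2 fold change -1.02, SE 0.12, adjusted p = 1.52e-05). Genes on the opposite strand, Notumos and Myadml2os, cover 38.1% of its exonic bases, and the labels do not say whether counting used the strand, which leaves the value for Notum uncertain.

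Rspo3, the secreted amplifier made by central vein endothelium and stellate cells, went the other way (chromosome 10, 29452416 to 29535867, minus strand). It measured 5.88, 8.34, 6.17 and 6.46 CPM in OGT-deficient 1 to 4, against 5.70, 5.46, 5.50, 3.99 and 4.35 CPM in WT 1 to 5. The lowest OGT-deficient value, 5.88 CPM, barely exceeded the highest WT value, 5.70 CPM, and OGT-deficient 2 was the highest library (log2 fold change 0.42, SE 0.15, adjusted p = 0.0294). The call was lost when any of 4 libraries was left out: adjusted p = 0.0614 without WT 4, 0.0656 without WT 5, 0.122 without OGT-deficient 2 and 0.0505 without OGT-deficient 4, with log2 fold changes of 0.29 to 0.47 over the 9 omissions and adjusted p = 0.00787 to 0.122 over all alternatives. A gene on the opposite strand covers 13.1% of its exonic bases.

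Markers of the cells that make Rspo3 were read in the same libraries, beside 29.4% of all tested genes called lower and 31.6% higher. Among 12 markers of stellate cells and myofibroblasts, 11 rose and 0 fell, and their summed level was 947 to 1232 CPM in OGT-deficient livers, against 246 to 486 CPM in WT livers. Lrat, which marks quiescent stellate cells, was the exception at 24.4 ± 4.92 CPM in OGT-deficient liver and 21.5 ± 3.46 CPM in WT liver (log2 fold change 0.18, adjusted p = 0.293). Among the 12 markers of endothelium, 2 rose and 4 fell, counts close to or below the shares of all tested genes. Their summed level was 340.0 to 591 CPM in OGT-deficient livers, against 498 to 676 CPM in WT livers. Those that rose were Vwf and Thbd, which mark larger vessels, and those that fell were Stab2, Clec4g, Oit3 and Gpr182, which mark sinusoids. Lyve1, which also marks sinusoids, was not called (log2 fold change 0.10, adjusted p = 0.74 in edgeR). No marker of either list was at 0 throughout, and their part in the Rspo3 value was not tested.

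**Figure D2:**
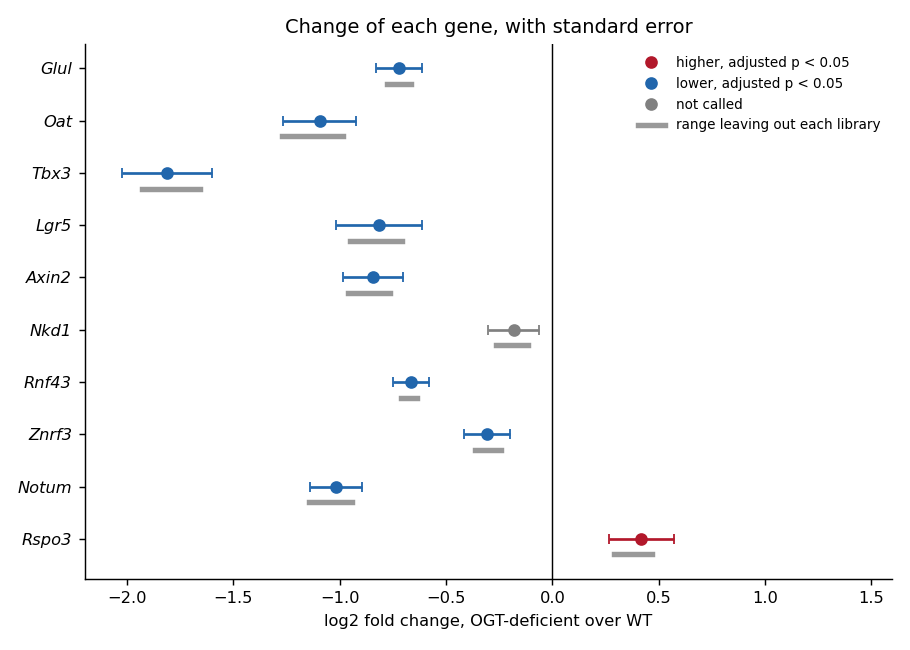
Log2 fold change of each gene, OGT-deficient over WT, with its standard error; gray bars show the range when each of the 9 libraries was left out in turn. The value of Tbx3 is -1.81 and that of Rspo3 0.42; Nkd1, in gray, was not called.

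Per kilobase of exon, the order of levels began with Glul (224 ± 25.6 RPKM in OGT-deficient liver and 368 ± 37.5 RPKM in WT liver), Oat (111 ± 27.8 RPKM in OGT-deficient liver and 238 ± 44.0 RPKM in WT liver) and Notum (17.0 ± 3.12 RPKM in OGT-deficient liver and 34.5 ± 3.32 RPKM in WT liver) in both groups, with no overlap between neighbours. Rnf43 came next in OGT-deficient liver. In WT liver Tbx3 did, with a range that overlapped that of Rnf43. Tbx3 had 2.01 ± 0.322 RPKM in OGT-deficient liver and 7.08 ± 2.24 RPKM in WT liver, and came after Nkd1 and Rspo3 in OGT-deficient liver, where the ranges of Nkd1 and Rspo3 and of Rspo3 and Tbx3 overlapped. Rspo3 had 2.17 ± 0.359 RPKM in OGT-deficient liver and 1.62 ± 0.251 RPKM in WT liver, next to last in WT liver, where the ranges of Axin2, Nkd1, Znrf3 and Rspo3 overlapped from neighbour to neighbour. RPKM here divides CPM by the exonic length in GENCODE, which may differ from the annotation the authors counted on.

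Within libraries, 20 of the 45 ratios between the 10 genes differed between groups at adjusted p = 0.0357 (two-sided exact permutation tests), and in all of these the groups did not overlap. All 9 ratios that involve Rspo3 were among them. For the 7 genes that lay wholly below WT this was fixed by the values above, since Rspo3 lay wholly above WT. Those ratios are no further evidence, and the 45 ratios share 10 genes and are not independent. The share among pairs of other genes was not computed, and 51.3% of all tested genes did not overlap between groups. The count of 20 thus cannot be read as particular to these 10 genes. Lgr5 over Rspo3 was 0.624, 0.589, 0.818 and 0.932 in OGT-deficient 1 to 4, against 1.14, 1.75, 1.11, 2.81 and 2.29 in WT 1 to 5. Tbx3 over Rspo3 gave the largest difference, -2.19 on the log2 scale, and Glul over Tbx3 was higher in OGT-deficient liver by 1.05. No ratio among Glul, Oat, Lgr5, Axin2, Rnf43 and Notum passed adjustment, which does not show that these 6 genes changed alike. The lowest value of a gene within its group fell in OGT-deficient 4 for 6 of the 10 genes and in WT 4 for 6 of the 10.

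The genes nearest to a member were sought among 9796 tested genes averaging at least 5 CPM, by the root mean square difference of log2 CPM from the WT mean over the 9 libraries. Nearest to Axin2 were Dpm3, Serhl and Ring1 (0.125 to 0.134). Tbx3 had more distant neighbours, Prlr, Lrrc14 and Trappc6a (0.254 to 0.306), of which the prolactin receptor gene Prlr averaged 31.8 ± 4.09 CPM in OGT-deficient liver and 108 ± 25.2 CPM in WT liver. Those of Rspo3 were Prpf31, Gdf2 and Bysl (0.108 to 0.116), and those of Notum Inca1, Zdhhc12 and Opa3 (0.0992 to 0.114). Oat lay nearest to Rdh13, Dcaf17 and Pdpr (0.158 to 0.199), Rnf43 to Uqcrb, Dgka and Ndufb3 (0.0654 to 0.0708), Znrf3 to Tbc1d17, Slc38a7 and Vars2 (0.0616 to 0.0789) and Nkd1 to Pno1, Xrcc6 and Mettl3 (0.0865 to 0.0958). Among the 10 themselves, Glul and Rnf43 were the closest pair, at 0.154.

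Other zonated genes were read beside the 10. Of 19 further pericentral genes tested, 11 fell and 2 rose, and the median of their log2 fold changes was -0.78. The cytochrome P450 gene Cyp2e1 averaged 1551 ± 212 CPM in OGT-deficient liver and 8028 ± 875 CPM in WT liver (log2 fold change -2.37). Cyp2c29 fell by 4.46 on the log2 scale, Por, the reductase that serves cytochromes P450, fell by 1.92 and Rgn, which encodes regucalcin, fell by 1.57. The genes that rose were Cyp3a11 (log2 fold change 0.68) and the neutral amino acid transporter gene Slc1a4 (1.26), both named after their values were seen, and Cyp3a11 overlapped between groups. Of 18 periportal genes tested, 10 fell and 4 rose, with a median of -0.76. Cyp2f2 averaged 332 ± 16.1 CPM in OGT-deficient liver and 1391 ± 212 CPM in WT liver (log2 fold change -2.06), and the histidine ammonia-lyase gene Hal fell by 1.71 and the arginase gene Arg1 fell by 1.29. The urocanate hydratase gene Uroc1 also fell, at 192 ± 11.9 CPM in OGT-deficient liver and 542 ± 37.5 CPM in WT liver. Hsd17b13, Cdh1, Etnppl and Gldc rose, named after their values were seen. Both ends of the lobule thus held falls in the majority of their listed genes, beside 29.4% of all tested genes, and the difference between the lists was not tested. Ass1 was not tested, with at most 12 counts in a library, and 55.3% of its 50-base stretches occur in other genes. Other genes cover 13.5% of the exonic bases of Cyp2f2 and 74.8% of those of Nr1i3, which leaves these values uncertain.

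**Figure D3:**
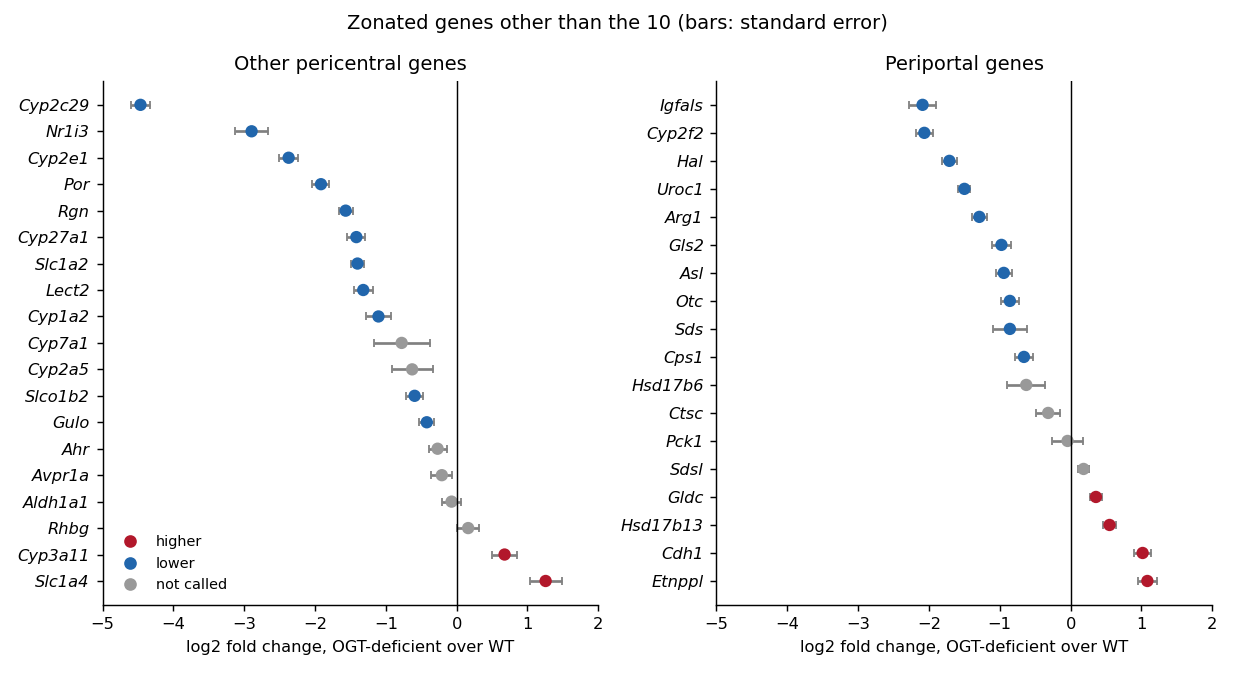
Log2 fold change with standard error of 19 other pericentral genes and 18 periportal genes, OGT-deficient over WT, colored by call. Most points of both panels lie left of 0, with Cyp2c29 farthest left at -4.46.

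Among the Wnt ligands, 9 of 19 had enough counts to be tested, of which 3 rose and 1 fell, beside 29.4% of all tested genes called lower and 31.6% higher. Wnt2, which sinusoidal and central vein endothelium makes, measured 2.85, 4.08, 3.05 and 3.55 CPM in OGT-deficient 1 to 4, against 5.58, 6.13, 4.60, 4.86 and 6.23 CPM in WT 1 to 5. It was lower in every OGT-deficient library (log2 fold change -0.70, SE 0.16, adjusted p = 0.00178). Wnt9b, the other endothelial ligand and named after its values were seen, averaged 1.87 ± 0.409 CPM in OGT-deficient liver and 1.42 ± 0.588 CPM in WT liver and was not called (log2 fold change 0.38, SE 0.31, adjusted p = 0.3). Wnt5a rose, with 6.07, 5.52, 4.57 and 4.38 CPM in OGT-deficient 1 to 4, against 1.35, 0.651, 1.40, 1.14 and 0.596 CPM in WT 1 to 5 (log2 fold change 2.32, SE 0.25, adjusted p = 6.78e-06), as did Wnt4 (log2 fold change 1.80, SE 0.31, adjusted p = 0.000253). Wnt7b was called higher, with 318 counts over the OGT-deficient libraries and 1 count over the WT libraries, too few in WT for a fold change. The median log2 fold change of the tested ligands was 0.38, and 5 rose with DESeq2's Wald test or with no filter beyond a count above 0. Those settings also take in ligands that failed the filter. Among these, Wnt7a had 74 counts over the OGT-deficient libraries and Wnt10a had 36, each with 0 over the WT libraries. The larger number of rises therefore adds no support. For secretion, Wls, the carrier of Wnt proteins, rose (log2 fold change 1.18, SE 0.15, adjusted p = 2.84e-05), while Porcn, which attaches their lipid, fell (log2 fold change -1.45, SE 0.19, adjusted p = 2.62e-05). Rspo1 was not called (log2 fold change 0.41, SE 0.79, adjusted p = 0.666), and Rspo2 and Rspo4 had 0 counts in all libraries. In the same livers 11 of 12 stellate cell and 8 of 9 tested bile duct markers rose. Cftr, among the latter, passed the filter on low counts only through the OGT-deficient libraries. Of 12 endothelial markers, 4 fell (Stab2, Clec4g, Oit3 and Gpr182) and 2 rose (Vwf and Thbd). The part of these markers in the ligand values was not tested.

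Of 14 Wnt receptor genes tested, 5 fell and 5 rose, beside 29.4% of all tested genes called lower and 31.6% higher, and 3 rose where at least 1 CPM in 4 libraries was required. Fzd8 measured 7.06, 8.27, 9.43 and 8.25 CPM in OGT-deficient 1 to 4, against 56.7, 53.1, 64.4, 58.8 and 32.3 CPM in WT 1 to 5 and fell by 2.68 on the log2 scale. Fzd4 fell by 1.49 and Lgr4 fell by 0.71, while Fzd3 rose by 3.30, at 1.80 ± 0.460 CPM in OGT-deficient liver and 0.170 ± 0.161 CPM in WT liver. Fzd5 and Ryk also fell, and Fzd1, Fzd2, Fzd6 and Ror2 also rose, all named after their values were seen. Of 7 secreted or membrane-bound antagonist genes tested, 5 rose and Kremen1 fell by 0.42, against the same shares of all genes, and 4 rose with the stricter filter. Sfrp1 measured 7.40, 3.33, 7.68 and 4.60 CPM in OGT-deficient 1 to 4, against 0.726, 0.987, 0.533, 0.243 and 0.447 CPM in WT 1 to 5 (log2 fold change 3.23). Dkk3 rose by 2.54, Frzb by 1.96 and Trabd2b, which cleaves Wnt proteins, by 1.98. Dkk2, named after its values were seen, was also called higher, with 112 counts over the OGT-deficient and 7 over the WT libraries. Dkk2, Fzd2, Fzd3, Ror2 and Wnt7b passed the filter on low counts only through the OGT-deficient libraries, where they are high, so their calls add no support to these counts. Markers of bile duct and stellate cells moved in the same direction as these antagonists and as the receptor genes that rose: 8 of 9 tested bile duct markers rose, with a summed level of 159 to 271 CPM in OGT-deficient livers, against 49.5 to 79.4 CPM in WT livers, none of them at 0 throughout, beside the stellate markers given above. Most of that bile duct sum was Spp1, at 157 ± 32.8 CPM in OGT-deficient liver and 34.5 ± 9.85 CPM in WT liver. Spp1 is also listed as a recruited macrophage marker, so the sum is not a measure of bile duct cells alone. Of the bile duct markers, Cftr averaged 1.19 ± 0.28 CPM in OGT-deficient liver and 0.0506 ± 0.033 CPM in WT liver. It likewise passed the filter only through the OGT-deficient libraries, so its call adds no support to the bile duct count. The part of these markers in the values above was not tested.

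The transcript of beta-catenin itself, Ctnnb1, named after its values were seen, averaged 294 ± 13.7 CPM in OGT-deficient liver and 283 ± 9.07 CPM in WT liver and was not called (log2 fold change 0.05, SE 0.07, adjusted p = 0.541). Of 12 genes of beta-catenin destruction and signal transduction, 2 rose and 2 fell, against 4 and 1 with upper-quartile factors. Only 1 rose without OGT-deficient 1, without OGT-deficient 3 and with the replicate block, and over all tested genes 61.1% were called, 29.4% lower and 31.6% higher. Gsk3b rose by 0.31 and Gsk3a by 0.21, both kinases that mark beta-catenin for destruction, while the scaffold genes Axin1 and Amer1 fell by 0.49 and fell by 0.37 on the log2 scale. Of 12 TCF factors and co-factors, 7 fell and 0 rose (median log2 fold change -0.38, against 0.02 over all tested genes), beside the same shares of all genes. Ctnnbip1, which encodes a protein that blocks the binding of beta-catenin to TCF, measured 4.21, 3.53, 4.12 and 3.65 CPM in OGT-deficient 1 to 4, against 14.3, 17.7, 14.1, 17.4 and 16.9 CPM in WT 1 to 5 (log2 fold change -2.05, SE 0.12, adjusted p = 4.56e-08). The corepressor genes Tle2, Tle1 and Tle4 fell by 1.66, fell by 0.87 and fell by 0.80. Other genes cover 25.8% of the exonic bases of Ctnnbip1, 28.3% of those of Gsk3a and 15.1% of those of Ctnnb1, so these values are uncertain.

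Targets read mostly in other tissues moved in both directions. Of 8 tested, 4 rose and Sp5, a transcription factor gene that also responds to Wnt in liver, fell, beside 29.4% of all tested genes called lower and 31.6% higher. Sp5 measured 1.41, 0.882, 2.1 and 1.67 CPM in OGT-deficient 1 to 4, against 5.45, 4.50, 5.47, 3.68 and 3.88 CPM in WT 1 to 5 (log2 fold change -1.59, SE 0.24, adjusted p = 8.55e-05). Sox9, which is also a bile duct marker, rose by 1.10, Cd44 by 0.77, Bmp4 by 0.67 and Tnfrsf19, named after its values were seen, by 0.78 on the log2 scale. Ccnd1 and Myc, likewise named after their values were seen, were not called (log2 fold changes 0.43 and -0.04, adjusted p = 0.0893 and 0.961 in edgeR).

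**Figure D4:**
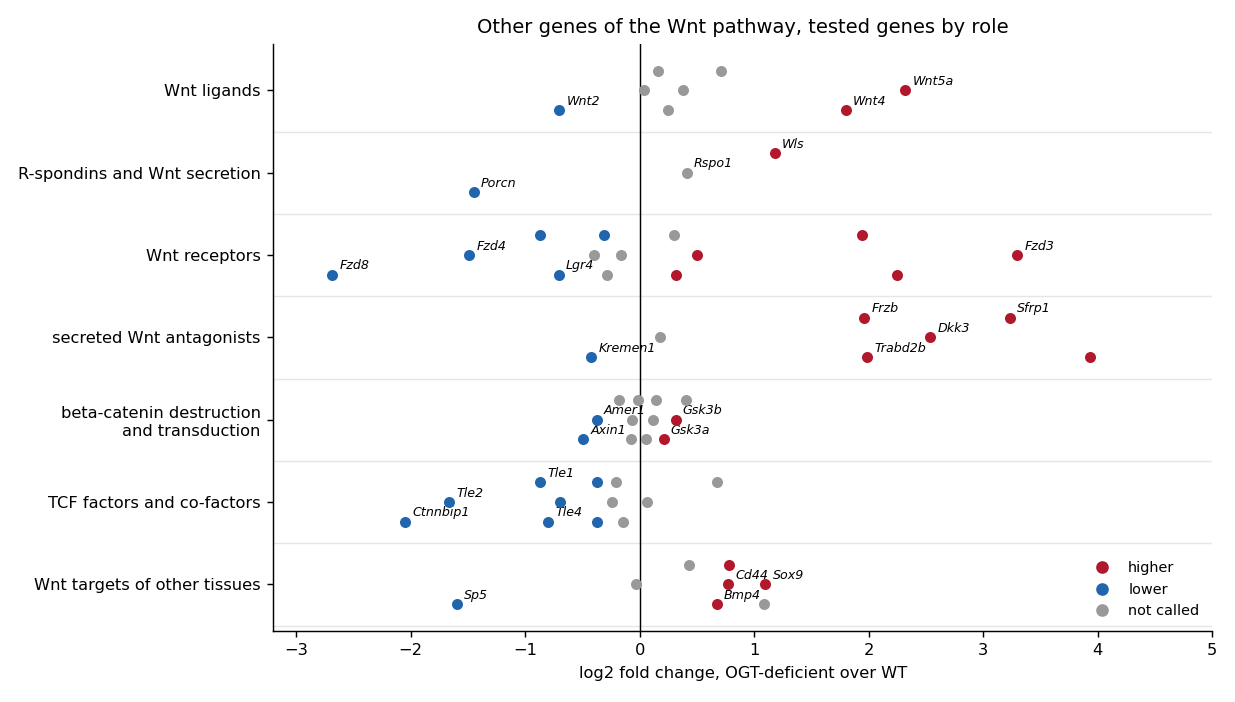
Log2 fold change, OGT-deficient over WT, of the tested genes of the Wnt pathway other than the 10, by role and colored by call; named points follow a fixed rule and the vertical offset within a row carries no value. Wnt7b, with 1 count in WT, is left out. Fzd8 lies at -2.68 and Sfrp1 at 3.23.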

How the data were processed

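Whole-liver RNA from 4 OGT-deficient and 5 WT mice was sequenced, and the design text gives as many mice as libraries. The authors deposited unnormalized read counts per gene symbol, made with TopHat2 2.1.0 and HTSeq 0.9.1 on mm10 (GRCm38), per the submitters' processing notes; annotation release, strand setting and library kit are not stated in them. Summary lines, 5 per library, were set aside; reads outside genes were 8.95 to 10.7% of unique reads. Library pairs within groups differed beyond sampling noise (chi-square per degree of freedom 23.86 to 135 over 16 pairs). No batch is given.

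Counts were tested in R 4.3.3 with edgeR 4.0.16 (filterByExpr, TMM, quasi-likelihood F test on group, Benjamini-Hochberg over 14104 genes). SE is the coefficient over the root of F. On simulated counts for 13370 genes, 100.0% of changes of 2, 76.9% of 1 and 39.7% of 0.5 (log2) were recovered. The simulation changed only 61, 65 and 63 genes by these sizes, and 8 unchanged genes were called. In the data 61.1% of tested genes were called, so these recovery rates may not hold for this comparison. Alternatives were DESeq2 size factors, upper-quartile factors, other filters, DESeq2 1.42.0, limma 3.58.1 voom, a replicate block, omission of the 30 most abundant genes and of each library. Ratios were tested with scipy 1.17.1. Symbols were matched to GENCODE M21 (GRCm38) for 1-based coordinates and exonic length, and promoters to RefSeq GRCm38.p6.

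The members and lists were chosen with earlier results of these data known. Genes named are all 10 members, the 3 nearest genes of each (those of Glul and Lgr5 are not reported here), and per list up to 4 genes of smallest p and any sole call in a direction. Other marker lists, not used further, gave 2 rises and 1 fall of 6 Kupffer cell genes, 6 and 0 of 9 recruited macrophage genes, 3 and 0 of 4 neutrophil genes, 0 and 1 of 7 T and NK cell genes, and 1 and 1 of 5 B cell genes. Over all tested genes, 31.6% were called higher and 29.4% lower. Spp1 stood in both the recruited macrophage and the bile duct list. Gpnmb, a recruited macrophage gene that rose, averaged 8.44 ± 3.26 CPM in OGT-deficient liver and 0.245 ± 0.162 CPM in WT liver. Gpnmb passed the filter on low counts only through the OGT-deficient libraries, so its call adds no support to that count.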

Additional observations from a re-analysis of the deposited data

Results flagged for a closer look

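A library far from the others of its group was sought for the 10 genes and 36 named list genes, in 92 groups, of which chance alone flags about 1 in 20. None of the 10 genes was flagged. Rspo1 stood at 1.29 CPM in OGT-deficient 2, against 0.0572 to 0.196 CPM in the other OGT-deficient libraries. Tle4 was at 17.9 CPM in WT 5, against 12.2 to 13.7 CPM in the other WT libraries. Wnt7b was at 0.0281 CPM in WT 3, from 1 count, and at 0 in the other WT libraries.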

How the results depend on the processing

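Over the 17 alternatives, 160 of 170 values of the 10 genes kept their direction and their side of the threshold, and 0 changed direction. Glul, Oat, Tbx3, Lgr5, Axin2, Rnf43 and Notum were called lower under all of them. With upper-quartile factors Znrf3 was not called (log2 fold change -0.18). Leaving out a library gave log2 fold changes of -0.36 to -0.24 for Znrf3, 0.29 to 0.47 for Rspo3 and -0.27 to -0.11 for Nkd1, and 0 to 1 of the 10 genes called higher; the cause was not tested, beyond the smaller number of libraries. The calls lost or gained in this way are named with each gene above. The replicate numbers did not pair the samples, since deviations of same-numbered libraries correlated at 0.0525, -0.103, 0.0220 and 0.104 for numbers 1 to 4. With the replicate block, which leaves fewer degrees of freedom, Rspo3 had a log2 fold change of 0.38 (adjusted p = 0.0726), so 0 of the 10 genes were called higher, and 7869 of all genes were called, against 8614 without it. Of 306 counts over the other lists, 9 moved by more than 1.5 times, each a count of 5 or fewer. By raw library size, before the scaling for composition, 3 counts correspond to 0.0554 to 0.0928 CPM, which limits statements on the ligands that were not tested. The CPM values given for genes include that scaling, so their floor differs somewhat: 1 count in WT 3 is 0.0257 CPM by raw size and 0.0281 CPM as given.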
